A study of Mus musculus with 9 samples.

Results

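Day 3 was compared with day 1 after ionizing radiation (IR) in mouse bone marrow megakaryocytes (MKs), the large cells that shed platelets. The 3 arrays labelled 3 day post IR were set directly against the 3 arrays labelled 1 day post IR. These 6 of the 9 arrays in the series were chosen by label and not by any measured value, and every gene on the array that passed the filter was compared. The other 3 arrays came from mice without IR (Ctrl) and gave the level against which fading, recovery and new rises were read. The 3 groups are called Ctrl, 1 dpi and 3 dpi (days post IR).

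The study asked how mature MKs (mMKs) respond to a sublethal exposure of the whole body and how the platelets they then make come to be large. Per the labels all mice were male, and different donors were used in each of 3 independent experiments at each time. The paper names wild-type C57BL/6 mice for work without a transgene, a single total-body dose of 5 Gy γ-rays for the irradiated groups and sham exposure for Ctrl, and it gives no age for the mice behind these arrays. The mMKs were taken from femur and tibia marrow after lysis of red cells, by selection for CD41 and then for CD42d, antigens of the MK and platelet surface, so that cells lacking either antigen would be left behind. The paper counts n in mice and gives n = 3 for this assay, and its methods describe another maker's chip than the Agilent one-colour arrays deposited.

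Total-body irradiation breaks DNA, and the transcription factor p53 then switches on genes that halt the cell cycle or prime cell death. Nucleic acid that leaks into the cytosol can be sensed and lead to type I interferon, which acts through STAT and IRF factors on a large set of antiviral genes. Marrow also loses most of its dividing blood precursors after such a dose, dead cells are taken up by macrophages, and the stroma, vessels and bone-lining cells that remain are known to remodel the matrix around them.

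Each value below is a level, log2 of the processed signal of 1 probe after each array was scaled to the same 75th percentile, unless it is called a change, which is log2 of the ratio between 2 groups. A gene is said to have risen or fallen when the adjusted p of limma, a linear model fitted across all genes, was under 0.05 and the change was at least 2-fold. An exact permutation test of 3 arrays against 3 cannot go below p = 0.10, so no single gene was tested in that way. Probes differ in how strongly they bind, so a summed level or the brightest gene of a list is no measure of transcript numbers. Values called corrected had their background corrected before quantile normalization.

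Before scaling, the 75th percentile of log2 signal was 8.85, 8.96 and 8.94 on the 1 dpi arrays, 9.85, 10.04 and 10.02 on the 3 dpi arrays and 9.52, 10.12 and 10.15 on the Ctrl arrays. The 1 dpi arrays were thus dimmer than all others, by 1.06 on average against 3 dpi. The spike-in controls, RNAs of known amount added before labelling, went the other way, with means of 13.15, 13.13 and 13.01 at 1 dpi, 12.48, 12.54 and 12.53 at 3 dpi and 12.24, 12.54 and 12.57 in Ctrl. Sample signal relative to spike-in signal was therefore 1.64 higher at 3 dpi than at 1 dpi, while 3 dpi and Ctrl differed by -0.02. The share of spots well above background was 72.3, 74.8 and 75.6% at 1 dpi, 81.8, 81.6 and 81.8% at 3 dpi and 69.1, 79.5 and 80.8% in Ctrl. The part of RNA content, of the amount labelled and of cell number in these differences was not tested. Scaling to the 75th percentile removes the difference in that percentile, but not the one in the share of spots well above background. After scaling, the lowest level marked as well above background was 4.56, 4.23 and 4.19 at 1 dpi. It was 3.37, 3.21 and 3.27 at 3 dpi, so dim genes were cut off at a higher level at 1 dpi. Every statement below holds for levels relative to the bulk of the signal on the same array.

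**Figure D1:**
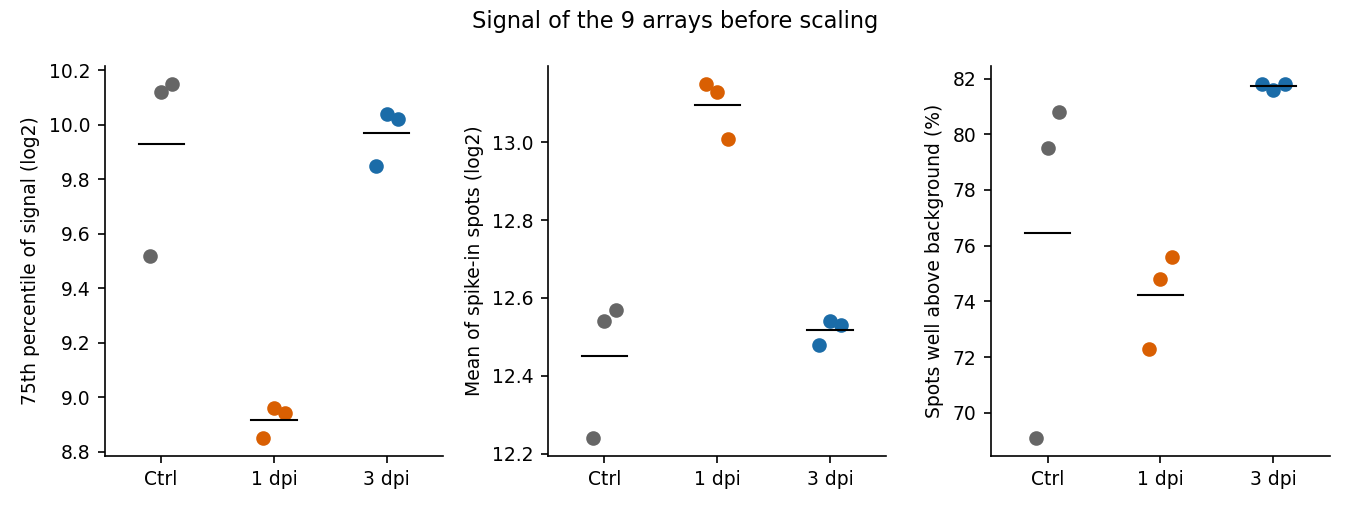
Signal of the 9 arrays before scaling. Each point is 1 array and each bar the mean of 3. From left to right the panels give the 75th percentile of signal (log2), the mean of the spike-in spots (log2) and the share of spots well above background (%). The 3 arrays of 1 dpi lie lowest for sample signal and highest for spike-ins.

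Arrays of a group resembled each other across genes, which are not independent replicates. Pearson's r between 2 arrays was 0.995 for each pair of 1 dpi arrays, 0.996 to 0.998 within 3 dpi and 0.973 to 0.981 between 1 and 3 dpi. Within Ctrl it was 0.987 to 0.998. Ctrl array 1 lay apart, with the fewest spots above background, and per the file headers it alone was on another slide. Counts without it are given below. In these bulk samples, fewer cells of a type and less RNA per cell cannot be told apart, for any gene named below.

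The label of the cells was checked against 37 MK genes. All 37 were well above background on the irradiated arrays, and the summed level of the list was 18.68, 18.61 and 18.59 in Ctrl, 18.53, 18.51 and 18.49 at 1 dpi and 18.62, 18.60 and 18.58 at 3 dpi. The 1 dpi arrays summed to slightly less than all others. Pf4, which encodes platelet factor 4 and was the brightest of them, had levels of 16.16, 16.12 and 16.13 in Ctrl, 16.32, 16.14 and 16.17 at 1 dpi and 16.16, 16.14 and 16.14 at 3 dpi, and these overlapped. Both sort antigens were present: Itga2b, encoding CD41, had levels of 10.50, 10.43 and 10.40 in Ctrl, 11.12, 11.13 and 11.08 at 1 dpi and 10.31, 10.49 and 10.45 at 3 dpi, and Gp5, encoding CD42d and named after the values were seen, had levels of 10.02, 9.56 and 9.52 in Ctrl, 9.21, 9.20 and 9.0 at 1 dpi and 9.33, 9.44 and 9.48 at 3 dpi. Itga2b was lower at 3 dpi than at 1 dpi without reaching 2-fold (-0.69), and Gp5 did not pass the test (0.28). The arrays thus hold MK signal on both days, though these levels are no measure of how much.

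Markers of other marrow cells were present beside it. The neutrophil list had a summed level of 21.01, 21.04 and 21.03 in Ctrl, 21.70, 21.63 and 21.62 at 1 dpi and 21.17, 21.02 and 21.09 at 3 dpi, with myeloperoxidase, Mpo, as its brightest gene at 17.88, 17.78 and 17.84 in Ctrl, 18.81, 18.70 and 18.68 at 1 dpi and 17.95, 17.76 and 17.79 at 3 dpi. The list of mast cells, basophils and eosinophils summed to 20.28, 20.30 and 20.25 in Ctrl, 21.00, 20.93 and 20.95 at 1 dpi and 20.45, 20.34 and 20.40 at 3 dpi, led by the eosinophil granule protein Prg2 at 17.98, 18.02 and 17.98 in Ctrl, 18.90, 18.85 and 18.85 at 1 dpi and 18.10, 17.90 and 17.98 at 3 dpi. Both sums were higher at 1 dpi than at 3 dpi on all arrays, and limma called no gene of either list, of 26 and 24 tested. With no minimum fold, adjusted p was under 0.05 for 1 higher and 15 lower neutrophil genes and for 1 higher and 10 lower genes of the other list. Their medians were -0.27 and -0.14 relative to all genes, and came to -0.02 and 0.03 with corrected values. Elane, the neutrophil elastase gene (-0.22), and Epx, the eosinophil peroxidase gene (0.16), are the other members that the naming rule took. One mast-cell marker, Tpsab1, was not well above background on the irradiated arrays. The part of such cells in the changes below was not tested.

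Of 29410 genes tested, 1224 were higher at 3 dpi than at 1 dpi (4.16%) and 1318 were lower (4.48%). The median change over all genes was -0.08, the middle 90% of genes lay between -0.99 and 0.98, and 90.3% of genes stayed within 2-fold. At a minimum of 4-fold, 322 were higher and 171 lower. The arrays of 1 and 3 dpi did not overlap for 65.2% of all genes, 1216 of the 1224 and 1316 of the 1318. Without Ctrl array 1, with probes chosen over all 9 arrays as before, 1333 were higher and 1414 lower, with 948 genes faded and 433 recovered in the sense given below.

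How the calls split between the directions rested on the scaling. With each array scaled to its median, 1778 genes were higher and 828 lower, and with quantile normalization 1620 and 954. Changes taken relative to the median of all genes gave 1437 and 1041, 1640 and 919 were called from the deposited log2 values, and without a filter on dim probes 1252 and 2374. Scaling to the spike-ins shifted the changes up and gave 24702 higher and 98 lower. The median change of all genes was 0.09 with the array median, 0.02 with quantile normalization, -0.14 with the 75th percentile taken over bright probes, 0.04 in the deposited table and 1.55 with spike-in scaling. For this reason each list of genes is described by its median minus the median of all genes, called its relative median, which a shift of a whole array cannot move.

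Many genes had more than 1 probe, and the probe with the highest mean level stood for the gene. Of 333 genes that rose and had several probes, 79 rose at least 2-fold by every probe, 115 had a probe with a smaller change in the same direction and 139 had a probe that went the other way. Of 301 such genes that fell, the numbers were 48, 144 and 109. Clone names or predicted names made up 425 of the genes that rose and 741 of those that fell. For 377 of the rises no 1 dpi array, and for 19 of the falls no 3 dpi array, was well above background, so the size of those changes is not known.

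Set beside Ctrl, most falls were returns. At 1 dpi against Ctrl 3455 genes were higher (11.7%) and 906 lower (3.08%), and at 3 dpi against Ctrl 2070 were higher (7.04%) and 526 lower (1.79%). These comparisons share arrays with the one between the days, so the patterns that follow describe group means and are not a further test. Of the 1318 genes lower at 3 dpi, 982 (74.5%) had faded, which means that they were at least 2-fold above Ctrl at 1 dpi. Of these, 867 were within 2-fold of Ctrl at 3 dpi, 109 were still above it and 6 were now below. The faded genes had a median change of 1.62 from Ctrl to 1 dpi and of -1.32 from 1 to 3 dpi. A further 70 genes newly fell, 10 fell further below Ctrl and 256 lay within 2-fold of Ctrl on both days.

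The 1224 genes that were higher at 3 dpi were more mixed. Those that newly rose, from within 2-fold of Ctrl at 1 dpi to at least 2-fold above it at 3 dpi, numbered 500 (40.8%). A further 349 (28.5%) recovered from at least 2-fold below Ctrl, 279 of them to within 2-fold, 27 still below and 43 now above. Another 209 (17.1%) were already at least 2-fold above Ctrl at 1 dpi and rose further, and 166 lay within 2-fold on both days. The genes that rose further had a median change of 1.60 from Ctrl to 1 dpi and of 1.44 from 1 to 3 dpi. The faded and recovered counts moved with the scaling, to 608 and 655 with the array median and to 611 and 660 in the deposited table. In these settings 635 and 563 genes newly rose, fewer than recovered. With probes bright on all arrays 215 newly rose and 222 recovered, and with corrected values 206 newly rose and 206 recovered.

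**Figure D2:**
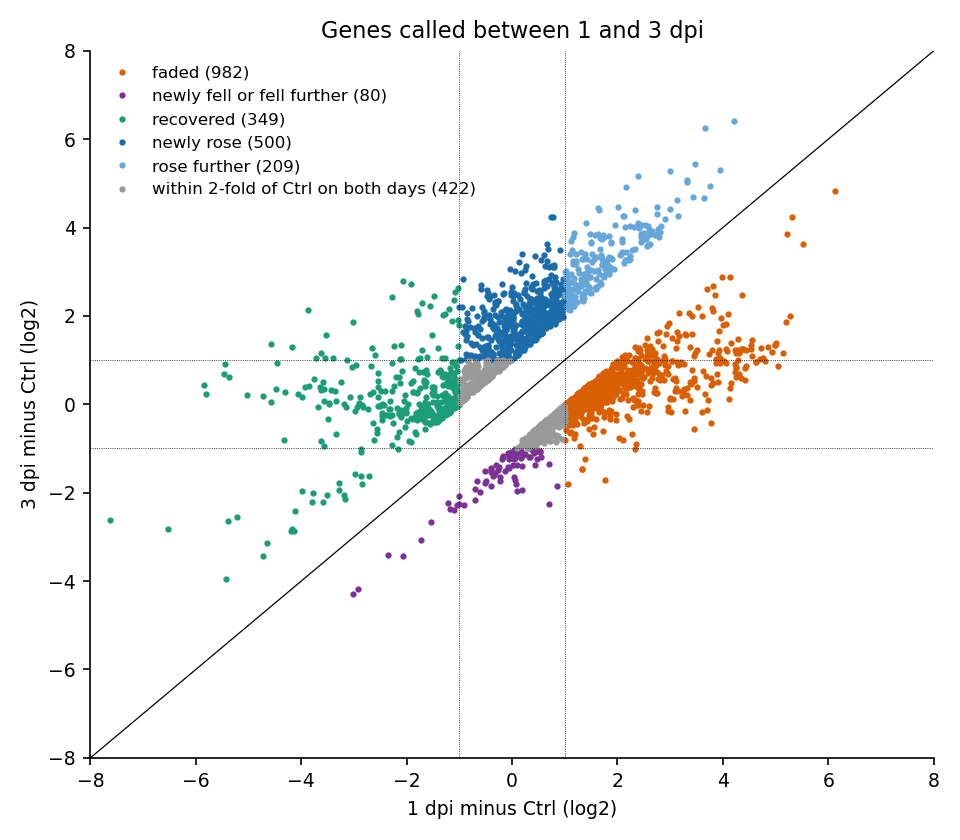
The 2542 genes called between 1 and 3 dpi, each a point at its log2 difference from Ctrl at 1 dpi (horizontal axis) and at 3 dpi (vertical axis), in colours for the patterns. Dotted lines mark 2-fold above or below Ctrl, and genes under the diagonal were lower at 3 dpi. Most points below the diagonal lie right of the dotted line at 1 dpi and return towards 0 at 3 dpi.

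The lists of interferon-induced genes had lower medians at 3 dpi, and some of their members faded. Of the antiviral effectors, 0 rose and 16 fell of 51 genes tested, all 16 of them faded. Of the interferon-inducible GTPases, large enzymes that attack membranes around intruders, 2 rose and 5 fell of 20 genes tested. The relative medians were -0.51 and -0.54, against 1.1 and 1.03 at 1 dpi and 0.51 and 0.49 at 3 dpi relative to Ctrl, so the medians were still above Ctrl at 3 dpi.

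Rsad2 encodes viperin, an enzyme that makes a chain-terminating nucleotide against viruses. Its levels were 10.47, 10.36 and 10.43 in Ctrl, 13.42, 13.40 and 13.31 at 1 dpi and 11.19, 11.12 and 10.99 at 3 dpi. The 3 dpi arrays lay below every 1 dpi array and above every Ctrl array, and the change between the days was -2.28 ± 0.07 (SE, n = 3 and 3, adjusted p = 5.4e-06), 4.85-fold lower. Gbp2, the guanylate-binding protein on which the study's account of large platelets turns, had levels of 10.92, 10.73 and 10.72 in Ctrl, 13.59, 13.53 and 13.63 at 1 dpi and 11.69, 11.72 and 11.79 at 3 dpi. It changed by -1.85 ± 0.07 (SE, n = 3 and 3, adjusted p = 8.1e-06), which left it 0.94 above Ctrl, with no overlap between any groups. The probe of Rsad2 lies at chr12:27127859-27127918 and that of Gbp2 at chr3:142300719-142300778 (mm9, per the file headers).

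Ifit3 and Ifit1, binders of viral RNA ends, stayed further above Ctrl. Ifit3 levels were 10.24, 10.37 and 10.28 in Ctrl, 14.10, 14.12 and 14.07 at 1 dpi and 12.60, 12.43 and 12.41 at 3 dpi, a change of -1.62 ± 0.07 (SE, n = 3 and 3, adjusted p = 9.7e-06) that left it 2.19 above Ctrl. Ifit1 fell by a change of -1.55 to 1.49 above Ctrl. The ubiquitin-like modifier Isg15 (-1.54) and the OAS-like protein Oasl1 (-1.64) returned to within 2-fold. Among the other GTPases Tgtp2 fell by a change of -1.83 to -0.32 relative to Ctrl and Gbp9 by -1.42, which was -0.96 and no longer called with corrected values. Mx1 (-1.17) and Mx2 (-1.13), GTPases that block viral cores, fell to 1.77 and 1.04 above Ctrl. With the array median neither Mx1 (-1.0) nor Mx2 (-0.95) was called, nor was Mx2 over the mean of its probes (-0.81). Irgm1, a regulator of the family, changed by -0.84 and did not reach 2-fold.

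Not all GTPases faded. Gbp8 had levels of 7.47, 7.49 and 7.56 in Ctrl, 7.37, 7.38 and 7.56 at 1 dpi and 8.71, 8.94 and 8.98 at 3 dpi. Its 1 dpi arrays overlapped with Ctrl and lay below every 3 dpi array, so it newly rose, by 1.44 ± 0.09 (SE, n = 3 and 3, adjusted p = 3.6e-05). Gbp11 likewise newly rose (1.26). Gbp11, Mx1 and Mx2 are named to complete these counts and were chosen after their values were seen.

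Upstream of these genes, changes were uneven. Of the IRF and STAT factors, 0 rose and 2 fell of 16 genes tested, with a relative median of 0.04. Irf1, which drives GTPase genes, had levels of 13.61, 13.51 and 13.45 in Ctrl, 14.97, 15.02 and 14.96 at 1 dpi and 13.50, 13.34 and 13.41 at 3 dpi and changed by -1.57 ± 0.07 (SE, n = 3 and 3, adjusted p = 9.3e-06). Its 3 dpi arrays overlapped with Ctrl. Irf7, which amplifies interferon output, changed by -0.86 and was still 1.26 above Ctrl. The interferon gene Ifnb1 itself had low levels of 3.04, 3.34 and 3.13 in Ctrl, 6.09, 5.80 and 6.38 at 1 dpi and 4.06, 3.67 and 4.08 at 3 dpi. It fell by a change of -2.15, which was -0.67 and not called with corrected values. Of sensors of nucleic acid and their adaptors, 1 rose and 0 fell of 18 genes tested and the relative median was -0.04. The sensor Cgas (-0.06) and its adaptor Sting1 (0.03) did not pass the test, and the endosomal RNA receptor Tlr7 newly rose (1.09), though by 0.98 over the mean of its probes.

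Genes of antigen presentation are given by class, and the difference between the classes was not tested. Over all genes, 4.16% rose and 4.48% fell. For class I and the immunoproteasome, 0 rose and 1 fell of 21 genes tested, and the relative median was -0.38. The gene that fell was Nlrc5, the transactivator of class I genes, at -1.13 (-0.95 and not called with the array median). B2m, the light chain, changed by -0.32, a sign that turned to 0.23 with quantile normalization. The peptide pump gene Tap1 changed by -0.96 and was called without 3 dpi array 1 (-1.01). For class II, 2 rose and 0 fell of 12 genes tested, and the relative median was 0.63 after -0.88 at 1 dpi against Ctrl. Ciita, the class II transactivator, named after its value was seen, recovered by 1.15 (0.40 and not called over the mean of its probes). Ifi30, a lysosomal thiol reductase, newly rose by 1.23. H2-Aa changed by 0.96, called without 1 dpi array 3 (1.01) or 3 dpi array 1 (1.04), and H2-Ab1 by 0.49.

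For the interferon and red-cell genes, promoters of 4 are shown, 300 bases each from 250 before to 50 after the start of transcription, from RefSeq on GRCm38.p6. Of the 29410 genes tested, 15850 had a promoter there by symbol. Capitals mark a match to the letters searched on either strand, GAAANNGAA for IRF factors in Rsad2 (chr12:26456403-26456702, minus strand) and Gbp2 (chr3:142620413-142620712, plus strand) and AGATAA for GATA factors in the erythropoietin receptor gene Epor (chr9:21963527-21963826, minus strand) and the haem enzyme gene Alas2 (chrX:150547167-150547466, plus strand). The Alas2 promoter also holds the IRF letters, and the Gbp2 promoter holds TTTGAA, counted below, both left in lower case.
Rsad2: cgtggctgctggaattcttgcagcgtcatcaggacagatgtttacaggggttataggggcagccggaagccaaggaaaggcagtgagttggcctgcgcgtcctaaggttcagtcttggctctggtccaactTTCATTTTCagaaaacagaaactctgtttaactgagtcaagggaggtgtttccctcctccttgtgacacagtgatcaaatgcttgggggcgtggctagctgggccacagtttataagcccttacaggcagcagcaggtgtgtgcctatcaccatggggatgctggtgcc
Gbp2: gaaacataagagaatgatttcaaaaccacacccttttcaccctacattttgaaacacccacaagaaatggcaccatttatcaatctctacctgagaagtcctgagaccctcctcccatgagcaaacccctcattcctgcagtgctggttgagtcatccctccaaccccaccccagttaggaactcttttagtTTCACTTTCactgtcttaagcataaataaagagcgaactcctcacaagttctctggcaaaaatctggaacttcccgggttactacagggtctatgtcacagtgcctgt
Epor: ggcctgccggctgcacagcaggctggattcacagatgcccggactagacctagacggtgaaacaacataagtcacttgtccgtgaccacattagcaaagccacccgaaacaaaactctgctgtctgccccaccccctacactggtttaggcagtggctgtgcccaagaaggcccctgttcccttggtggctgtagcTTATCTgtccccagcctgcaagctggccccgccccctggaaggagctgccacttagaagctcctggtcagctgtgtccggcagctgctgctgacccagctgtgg
Alas2: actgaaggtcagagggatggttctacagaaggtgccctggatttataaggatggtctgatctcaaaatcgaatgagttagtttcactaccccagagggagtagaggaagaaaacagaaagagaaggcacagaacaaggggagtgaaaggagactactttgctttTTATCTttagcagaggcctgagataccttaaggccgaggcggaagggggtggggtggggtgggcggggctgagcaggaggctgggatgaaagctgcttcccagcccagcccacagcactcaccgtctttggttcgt
A match is a description of letters and not a binding site.

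TTTGAA is the core of the CHR element of mitotic genes. Counted by gene, the IRF letters were in 10 of 11 GTPase promoters (90.9%) and 26 of 44 antiviral effector promoters (59.1%), beside 9.1% of the genes tested. CCAAT and TTTGAA were each in 34 of 47 promoters of the mitosis list (72.3%), beside 42.2 and 16.8% of the genes tested. The GATA letters were in 9 of 26 red-cell promoters (34.6%) and 3 of 19 haem and globin promoters (15.8%), beside 10.2%. Other lists had high shares too. The GATA letters were in 42.9% of promoters of the mast cell, basophil and eosinophil list and in 36.4% of GTPase promoters. Histone promoters held CCAAT in 88.1% and TTTGAA in 47.6%, and GTPase promoters held TTTGAA in 45.5%. Over all genes that rose and all that fell, the IRF shares were 11.4 and 10.8%.

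The list of p53 targets had a lower median at 3 dpi, and some of its members faded, not all of them to the level of Ctrl. Of the arrest and feedback targets, 0 rose and 11 fell of 36 genes tested, and all 11 faded. The relative median was -0.58, after 1.26 at 1 dpi and 0.49 at 3 dpi relative to Ctrl. Cdkn1a, encoding the p21 brake on cyclin-dependent kinases, had levels of 10.96, 10.69 and 10.67 in Ctrl, 14.65, 14.60 and 14.61 at 1 dpi and 13.44, 13.18 and 13.15 at 3 dpi. The 3 groups did not overlap, and the change of -1.36 ± 0.11 (SE, n = 3 and 3, adjusted p = 8.4e-05) left it 2.48 above Ctrl. Zfp365, a p53-induced zinc finger gene, had levels of 3.91, 4.30 and 4.28 in Ctrl, 9.67, 9.69 and 9.67 at 1 dpi and 7.79, 7.80 and 7.77 at 3 dpi. It was the steepest faller of the list, with -1.89 ± 0.10 (SE, n = 3 and 3, adjusted p = 1.9e-05), and was still 3.62 above Ctrl.

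Mdm2, the ligase that degrades p53, changed by -1.07, a call that was lost with the array median (-0.90) and with quantile normalization (-0.86). The adenylate kinase gene Ak1 (-1.41) and the spindle gene Psrc1 (-1.49) fell to 1.99 and 1.08 above Ctrl. Btg2, an antiproliferative gene, fell by a change of -1.38 to -0.32 relative to Ctrl.

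In the BCL2 family, which sets the threshold for release of cytochrome c, 0 rose and 3 fell of 17 genes tested and the relative median was -0.02. The pore former Bax had levels of 12.44, 12.36 and 12.33 in Ctrl, 14.81, 14.77 and 14.81 at 1 dpi and 13.22, 13.33 and 13.36 at 3 dpi. It changed by -1.49 ± 0.06 (SE, n = 3 and 3, adjusted p = 8.8e-06) and ended 0.93 above Ctrl, with no overlap among the 3 groups. Bbc3, encoding PUMA, fell by a change of -1.52. Hrk, another killer of the BH3 kind, fell by a change of -1.1 from low levels, and that call was lost with several scalings (-0.93 with the array median) and without 3 dpi array 3 (-0.96). Bcl2l1, encoding the survival factor Bcl-xL that the study placed at the centre of MK resistance, had levels of 13.08, 12.98 and 12.96 in Ctrl, 13.77, 13.73 and 13.73 at 1 dpi and 13.70, 13.64 and 13.56 at 3 dpi. Its change between the days was -0.11, which did not pass the test, and it was 0.63 above Ctrl at 3 dpi. These are RNA levels after IR, whereas the study followed Bcl-xL protein across MK maturation and inhibited it. Among death receptors and caspases 2 rose and 0 fell of 30 genes tested. Fasl, the ligand of Fas, newly rose by 1.34 (0.99 and not called with corrected values) and Casp6 recovered by 1.11. The relative median was 0.24 and turned to -0.05 in the deposited table. Fas (0.34) did not reach 2-fold.

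Of DNA damage and repair genes 0 rose and 2 fell of 62 genes tested, beside 4.16 and 4.48% of all genes, and both faded. The relative median was 0.16, after -0.54 at 1 dpi and -0.27 at 3 dpi relative to Ctrl. Of the 62, 48 changed by more than the median of all genes. With no minimum fold, adjusted p was under 0.05 for 18 higher and 6 lower genes. Ung, which removes uracil from DNA, returned to the level of Ctrl by a change of -1.24, but with quantile normalization the change was -0.82 and not called. Rad51c, of homologous recombination, fell by a change of -1.27, while the mean over its probes gave -0.83 and no call. The kinase gene Atm (0.11) did not pass the test, and Brca1 changed by 0.69, with a probe that went the other way (-0.75).

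**Figure D3:**
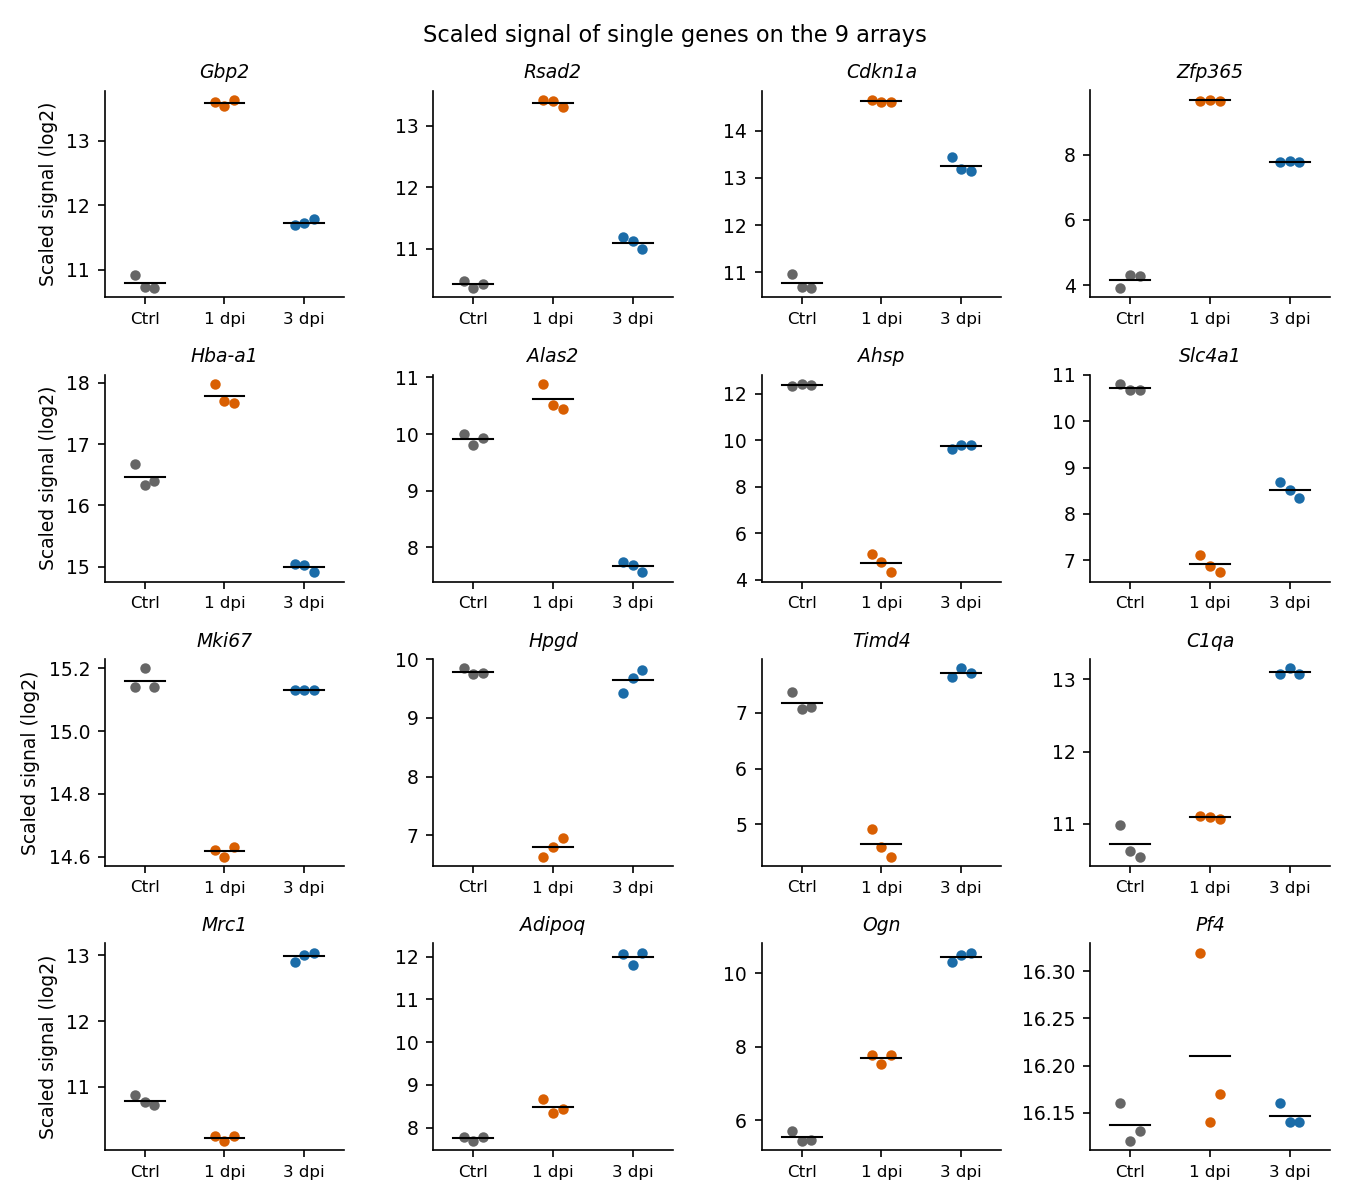
Level (log2 scaled signal) of 16 genes on each of the 9 arrays, with bars at the mean of 3 arrays. Rows show, from the top, faded interferon and p53 genes, red-cell genes that fell or recovered, genes that were low at 1 dpi beside C1qa, and late rises beside Pf4, whose axis spans less than the others. Each panel has its own axis, since probes differ in how strongly they bind.

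Globin and red-cell genes split in opposite directions. Of the haem and globin list, 2 rose and 6 fell of 22 genes tested, with a relative median of 0.03. Hba-a1, encoding an adult alpha-globin, had levels of 16.67, 16.33 and 16.40 in Ctrl, 17.98, 17.70 and 17.68 at 1 dpi and 15.05, 15.03 and 14.91 at 3 dpi. It stood above Ctrl on every 1 dpi array and below Ctrl on every 3 dpi array, a change of -2.79 ± 0.12 (SE, n = 3 and 3, adjusted p = 8.8e-06), 6.93-fold. Hbb-b1, a beta-globin, went the same way with levels of 10.87, 10.90 and 10.92 in Ctrl, 12.11, 11.84 and 11.91 at 1 dpi and 8.99, 9.28 and 8.98 at 3 dpi and a change of -2.87 ± 0.11 (SE, n = 3 and 3, adjusted p = 5.8e-06). Alas2, the enzyme that commits erythroid cells to haem synthesis, had levels of 10, 9.81 and 9.93 in Ctrl, 10.88, 10.52 and 10.44 at 1 dpi and 7.74, 7.69 and 7.56 at 3 dpi. It newly fell by a change of -2.95 ± 0.12 (SE, n = 3 and 3, adjusted p = 8.8e-06). The summed level of this list was 18.46, 18.23 and 18.28 in Ctrl, 19.31, 19.07 and 19.05 at 1 dpi and 17.46, 17.43 and 17.36 at 3 dpi.

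Ahsp, the chaperone that holds free alpha-globin, moved against the globins. Its levels were 12.31, 12.41 and 12.39 in Ctrl, 5.13, 4.75 and 4.33 at 1 dpi and 9.63, 9.81 and 9.80 at 3 dpi. They were far below Ctrl at 1 dpi and came part of the way back without overlap between any groups, a rise of 5.01 ± 0.18 (SE, n = 3 and 3, adjusted p = 5.5e-06) that left it -2.62 relative to Ctrl. Embryonic Hbb-y, named after its value was seen, was not well above background at 1 dpi on any array. Where all arrays of the dimmer group are like this, the change is given as a bound from the gene's own level or the lowest one marked as above background, whichever is higher, and Hbb-y was at least 1.93-fold higher at 3 dpi (0.69 and not called with corrected values).

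Of the red-cell membrane and regulator genes, 9 rose and 2 fell of 37 genes tested, and all 9 rises were recoveries. Slc4a1, the band 3 anion exchanger, had levels of 10.80, 10.67 and 10.67 in Ctrl, 7.11, 6.88 and 6.74 at 1 dpi and 8.68, 8.51 and 8.35 at 3 dpi and rose by 1.60 ± 0.12 (SE, n = 3 and 3, adjusted p = 6.8e-05). Slc38a5, a glutamine transporter of erythroid precursors, had levels of 10, 9.96 and 10.02 in Ctrl, 4.83, 4.87 and 4.66 at 1 dpi and 7.53, 7.40 and 7.39 at 3 dpi and rose by 2.66 ± 0.08 (SE, n = 3 and 3, adjusted p = 5.4e-06). Neither overlapped between any groups, and both were still far below Ctrl at 3 dpi (-2.20 and -2.55). Epor recovered by 1.15 to -0.14 relative to Ctrl, though the mean over its probes gave 0.73 and no call. Klf1, the erythroid master factor, changed by 0.42 by its brighter probe and by 2.21 in the deposited table.

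The falls on that list were Dmtn, a membrane skeleton gene, and Hemgn, an erythroid nuclear factor, both named after their values were seen. Their changes of -1.31 and -1.23 turned to 0.83 and 0.30 in the deposited table, where another probe stands for the gene. The relative median of the list was 0.51, beside -1.36 at 1 dpi and -1.25 at 3 dpi relative to Ctrl. It was 0.79 in the deposited table, 0.09 with 7 dim genes at their bounds and -0.04 when genes had to be well above background on all arrays. Its summed level was 17.99, 18.03 and 18.04 in Ctrl, 18.59, 18.54 and 18.50 at 1 dpi and 17.83, 17.75 and 17.81 at 3 dpi.

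Iron genes rose in part, with 6 rose and 0 fell of 25 genes tested and a relative median of 0.63 (0.46 with dim genes at their bounds, 0.30 when genes had to be well above background on all arrays and 0.31 over the mean of probes). The iron exporter gene Slc40a1 rose by 1.63 ± 0.07 (SE, n = 3 and 3, adjusted p = 9.2e-06), but its other probe gave -0.34 and the mean 0.64 without a call. Cp, a plasma ferroxidase, rose further by 1.59.

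B-cell precursor genes stayed far below Ctrl on both days. 6 rose and 1 fell of 22 genes tested. The relative median was 0.14 between the days, beside -2.05 at 1 dpi and -1.94 at 3 dpi relative to Ctrl. Vpreb3, of the pre-B receptor complex, had levels of 12.81, 12.87 and 12.90 in Ctrl, 7.24, 7.44 and 7.59 at 1 dpi and 8.94, 8.86 and 8.92 at 3 dpi and rose by 1.48 ± 0.09 (SE, n = 3 and 3, adjusted p = 3.3e-05). Vpreb1, a surrogate light chain, had levels of 11.93, 11.92 and 11.94 in Ctrl, 8.25, 8.19 and 8.08 at 1 dpi and 8.78, 8.71 and 8.81 at 3 dpi. Its change of 0.59 did not reach 2-fold, and all 3 groups were apart for both genes. Igll1, the partner chain of Vpreb1, rose by 1.29 and the factor gene Lef1 by 1.33, changes of 0.69 and 0.81 without a call with corrected values.

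Vpreb2, the close relative of Vpreb1, went the other way. Its levels were 8.70, 8.88 and 8.87 in Ctrl, 10.88, 10.39 and 10.46 at 1 dpi and 6.98, 7.10 and 7.24 at 3 dpi. It was above Ctrl on every 1 dpi array and below Ctrl on every 3 dpi array, with a change of -3.47 ± 0.14 (SE, n = 3 and 3, adjusted p = 8.1e-06). The summed level of the list was 16.84, 16.75 and 16.73 in Ctrl, 16.08, 16.10 and 16.07 at 1 dpi and 16.01, 15.93 and 15.87 at 3 dpi, with the progenitor factor Myb as the brightest gene, and 4 of its 22 genes tested are on another list too. Rag1 was not well above background on the irradiated arrays.

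Mature B-cell genes were also low after IR, with a relative median of 0.42 between the days, beside -1.32 at 1 dpi and -1.29 at 3 dpi relative to Ctrl. 3 rose and 0 fell of 22 genes tested. These were Ciita, the Fc receptor-like gene Fcrla (1.34, still -2.86 relative to Ctrl) and Jchain, the joining chain of secreted antibodies (1.13). The first members, Ms4a1 (0.39) and Cd22 (-0.32), were not called and had probes that disagreed. Summed, the list came to 16.39, 16.29 and 16.28 in Ctrl, 15.82, 15.82 and 15.86 at 1 dpi and 16.36, 16.24 and 16.25 at 3 dpi, and Xbp1 was brightest.

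The median of the progenitor genes did not come back to Ctrl by 3 dpi. Of the stem and progenitor list, 1 rose and 2 fell of 28 genes tested, and the relative median was -0.15, beside -0.65 at 1 dpi and -0.84 at 3 dpi relative to Ctrl. Cd34, a surface antigen of early progenitors, had levels of 14.92, 14.94 and 14.89 in Ctrl, 14.39, 14.40 and 14.44 at 1 dpi and 13.52, 13.39 and 13.31 at 3 dpi. It newly fell by a change of -1.0 ± 0.07 (SE, n = 3 and 3, adjusted p = 4.4e-05), at the very edge of 2-fold, and the call was lost with the array median (-0.83), the quantile values (-0.97) and without 1 dpi array 3 (-0.99), 3 dpi array 2 (-0.99) or 3 dpi array 3 (-0.95). Meis1, a factor of stem cells and MKs, fell further by a change of -1.01, not called with the array median (-0.84), without 1 dpi array 2 (-1.0) or without 3 dpi array 3 (-0.97). The stem-cell factor receptor gene Kit was -1.11 at 1 dpi and -1.32 at 3 dpi relative to Ctrl, with no call between the days. Slamf1, encoding CD150 and named after its value was seen, rose by 1.19 (0.54 over the mean of its probes), from -0.60 to 0.58 relative to Ctrl. The summed level of the list, led by Myb, was 17.77, 17.69 and 17.66 in Ctrl, 17.22, 17.26 and 17.25 at 1 dpi and 17.06, 17.02 and 16.96 at 3 dpi, and 13 of its 28 genes tested are on another list too.

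The mitosis and cytokinesis list had a higher median at 3 dpi, with most changes under 2-fold. Of its genes, 2 rose and 0 fell of 55 tested, beside 4.16% of all genes that rose, but 53 of the 55 changed by more than the median of all genes. With no minimum fold, adjusted p was under 0.05 for 42 higher genes and 1 lower gene. The relative median was 0.60, after -0.58 at 1 dpi and -0.07 at 3 dpi relative to Ctrl, so the list was back at Ctrl. Mki67, the proliferation marker Ki-67, had levels of 15.14, 15.20 and 15.14 in Ctrl, 14.62, 14.60 and 14.63 at 1 dpi and 15.13, 15.13 and 15.13 at 3 dpi. Its 1 dpi arrays lay below all others, and the change of 0.51 ± 0.05 (SE, n = 3 and 3, adjusted p = 2.2e-04) was under 2-fold. Kif18a, a motor that aligns chromosomes, recovered by 1.08 (0.99 with corrected values, not called). Anln, a scaffold of the cleavage furrow named after its value was seen, recovered by 1.00, a call that was lost with quantile normalization (0.93), over the mean of its probes (0.19) and without 1 dpi array 1 (0.94), 3 dpi array 2 (1.00) or 3 dpi array 3 (0.97). The mitotic cyclin gene Ccnb1 did not pass the test (0.23).

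In the replication list 0 rose and 0 fell of 46 genes tested, with a relative median of 0.19, and adjusted p was under 0.05 with no minimum fold for 19 higher and 7 lower genes. The helicase gene Mcm2 changed by -0.08 and the sliding clamp gene Pcna by 0.37. Of G1 cyclins and CDK inhibitors 2 rose and 0 fell of 20 genes tested, and the relative median was 0.34 (0.10 in the deposited table). Cdkn1c, encoding the p57 inhibitor, newly rose by 1.16. Rbl1, a pocket protein gene named after its value was seen, recovered by 1.01, not called with quantile normalization (0.97), over its probes (0.30) or without 1 dpi array 1, 3 dpi array 2 or 3 dpi array 3 (0.95 each).

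The list of histone genes whose transcripts are made in S phase had a lower median at 3 dpi, by less than 2-fold. Of its genes, 0 rose and 1 fell of 40 tested, beside 4.48% of all genes that fell. Only 2 of the 40 changed by more than the median of all genes, and the relative median was -0.59. With no minimum fold, adjusted p was under 0.05 for 0 higher and 35 lower genes. H3c1 newly fell by a change of -1.0, just at 2-fold, and was not called with the array median (-0.83), quantile normalization (-0.98) or without 1 dpi array 2 (-0.98), 3 dpi array 2 or 3 dpi array 3 (-0.97 each). H1f5 (-0.61) and H2bc3 (-0.49) did not reach 2-fold.

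Macrophage genes recovered or rose. Of the macrophage list, 15 rose and 0 fell of 32 genes tested, and the relative median was 1.03, beside 0.44 at 1 dpi and 1.57 at 3 dpi relative to Ctrl. The 15 rises were 3 recoveries, 6 new rises, 5 further rises and 1 within 2-fold of Ctrl on both days. Timd4, a receptor for the phosphatidylserine of dying cells, had levels of 7.37, 7.07 and 7.11 in Ctrl, 4.91, 4.59 and 4.42 at 1 dpi and 7.64, 7.80 and 7.71 at 3 dpi. It rose by 3.07 ± 0.14 (SE, n = 3 and 3, adjusted p = 9.5e-06), from below every Ctrl array to above every Ctrl array. Hpgd, which breaks down prostaglandins, had levels of 9.84, 9.75 and 9.77 in Ctrl, 6.64, 6.81 and 6.96 at 1 dpi and 9.43, 9.68 and 9.81 at 3 dpi. It rose by 2.83 ± 0.12 (SE, n = 3 and 3, adjusted p = 8.8e-06), and its 3 dpi arrays overlapped with Ctrl. Cd163, the receptor for haemoglobin bound to haptoglobin, recovered by 2.83.

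The list does not hold the lectin genes Cd209f and Fcna, which were among the largest rises. Cd209f had levels of 8.21, 8.30 and 8.25 in Ctrl, 5.56, 5.38 and 5.85 at 1 dpi and 9.46, 9.50 and 9.60 at 3 dpi. It rose by 3.92 ± 0.12 (SE, n = 3 and 3, adjusted p = 5.4e-06), 15.2-fold, from below Ctrl to above it. Fcna, a ficolin of the lectin pathway of complement, had levels of 10.22, 10.11 and 10.08 in Ctrl, 7.91, 7.89 and 7.78 at 1 dpi and 11.02, 11.08 and 11.13 at 3 dpi and rose by 3.21 ± 0.07 (SE, n = 3 and 3, adjusted p = 3.6e-06). Mrc1, the mannose receptor, had levels of 10.87, 10.77 and 10.73 in Ctrl, 10.25, 10.18 and 10.25 at 1 dpi and 12.90, 13.01 and 13.04 at 3 dpi. It was lower than Ctrl at 1 dpi by less than 2-fold and newly rose by 2.76 ± 0.07 (SE, n = 3 and 3, adjusted p = 4.8e-06). The first members of the list, Adgre1 (F4/80, 0.73) and Csf1r (receptor of macrophage colony-stimulating factor, 0.67), did not reach 2-fold, and another probe of Adgre1 gave -0.31. The list summed to 18.22, 18.38 and 18.34 in Ctrl, 19.10, 19.00 and 19.00 at 1 dpi and 19.08, 18.95 and 19.03 at 3 dpi, with lysozyme Lyz2 brightest, with overlap between the days, although the median gene of the list was higher at 3 dpi. Of the list, 15 of its 32 genes tested are on another list too.

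Of complement components and regulators, 10 rose and 0 fell of 24 genes tested, and the relative median was 0.66, after 0.22 at 1 dpi against Ctrl. The 10 were 6 new rises, 3 further rises and 1 within 2-fold of Ctrl on both days. C1qa, a chain of the C1q sensor that macrophages make, had levels of 10.98, 10.63 and 10.55 in Ctrl, 11.11, 11.09 and 11.07 at 1 dpi and 13.07, 13.15 and 13.07 at 3 dpi and newly rose by 2.01 ± 0.11 (SE, n = 3 and 3, adjusted p = 2.0e-05). C2, a protease of the classical pathway, had levels of 7.66, 7.61 and 7.63 in Ctrl, 7.76, 7.65 and 7.81 at 1 dpi and 10.15, 9.94 and 10.22 at 3 dpi and newly rose by 2.36 ± 0.09 (SE, n = 3 and 3, adjusted p = 5.5e-06). The 1 dpi arrays overlapped with Ctrl for C2 and lay above it for C1qa, and for both genes the 3 dpi arrays lay above all others. Serping1, the inhibitor of C1, rose further by 1.46. C3, the central component, was level on all arrays (16.33, 16.17 and 16.15 in Ctrl, 16.32, 16.28 and 16.23 at 1 dpi and 16.27, 16.23 and 16.19 at 3 dpi). Of the list, 8 of its 24 genes tested are on another list too.

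Of lysosome and dead-cell clearance genes, 11 rose and 0 fell of 42 genes tested, with a relative median of 0.55. Axl, a kinase receptor that recognises dying cells, had levels of 13.26, 12.92 and 12.97 in Ctrl, 12.52, 12.46 and 12.45 at 1 dpi and 14.36, 14.28 and 14.16 at 3 dpi and newly rose by 1.80 ± 0.10 (SE, n = 3 and 3, adjusted p = 2.2e-05). Its ligand gene Gas6 had levels of 9.19, 9.15 and 9.11 in Ctrl, 12.36, 12.11 and 12.38 at 1 dpi and 13.77, 13.74 and 13.78 at 3 dpi and rose further by 1.48 ± 0.08 (SE, n = 3 and 3, adjusted p = 2.0e-05). The 3 groups were apart for Gas6, while Axl dipped below Ctrl at 1 dpi. Stab2, a scavenger receptor of sinusoids, newly rose by 1.56 and the collagen-cutting protease gene Ctsk by 1.63. Gpnmb, a glycoprotein of phagocytes full of debris, was already 5.86 above Ctrl at 1 dpi, and the further change of 0.79 did not reach 2-fold. The lysosomal protease gene Ctsd was 1.21 above Ctrl at 1 dpi and changed by -0.08 thereafter.

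Monocyte, dendritic-cell and lymphocyte markers each had a few calls. Of the monocyte list, 3 rose and 2 fell of 20 genes tested, with a relative median of 0.02. Ccr2, the chemokine receptor with which monocytes leave the marrow, newly rose by 1.87 ± 0.10 (SE, n = 3 and 3, adjusted p = 1.6e-05). The transglutaminase gene F13a1 rose by 1.09 (0.29 and not called in the deposited table), and fibronectin is given below. Ms4a4c faded by a change of -1.14, which was -0.65 and not called with quantile normalization, and Ahnak, named after its value was seen, by -2.29, which was -0.21 and not called over its probes. Ly6c2 changed by -0.61. Its summed level was 19.61, 19.61 and 19.59 in Ctrl, 20.33, 20.27 and 20.24 at 1 dpi and 19.84, 19.70 and 19.79 at 3 dpi, with Lyz2 as the brightest gene.

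Of the dendritic-cell list, 5 rose and 0 fell of 21 genes tested, with a relative median of 0.45. The lectin gene Clec10a newly rose by 1.96, the acid amidase gene Naaa newly rose by 1.41 and Cd209a recovered by 1.62. Fcrla is on this list too, and Cox6a2, a marker of the plasmacytoid kind named after its value was seen, rose by 1.05 (0.98 and not called with corrected values, 1.00 without 3 dpi array 1). The first members went the other way without a call, Flt3 by -0.46 and Siglech, also plasmacytoid, by -0.94, which turned to 1.46 in the deposited table. Summed, the list came to 17.74, 17.71 and 17.72 in Ctrl, 18.29, 18.23 and 18.21 at 1 dpi and 17.81, 17.73 and 17.77 at 3 dpi, and Ly6c2 was brightest, and Xcr1 was not well above background on the irradiated arrays.

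Of the T and NK list, 5 rose and 1 fell of 29 genes tested, with a relative median of 0.47. The NK receptor genes Klrd1 (1.81) and Klrb1c (1.44) and the T-cell receptor subunit gene Cd3g (1.45) newly rose, and the adhesion gene Cd2 recovered (1.54). Granzyme A, Gzma, rose further by 1.06 (0.98 and not called without 1 dpi array 2). Cd247, the zeta chain, had a change of -1.62 that turned to 2.03 in the deposited table and 0.17 over its probes. Gzma and Cd247 were named after their values were seen. Cd3e (-0.43) and Nkg7 (-0.31) did not reach 2-fold. The list summed to 15.43, 15.49 and 15.43 in Ctrl, 16.03, 15.95 and 15.96 at 1 dpi and 15.91, 15.80 and 15.77 at 3 dpi, with Nkg7 brightest.

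Stromal and bone-lineage markers rose as lists. Of the stromal niche markers, 16 rose and 0 fell of 32 genes tested, with a relative median of 1.06 on top of 1.14 at 1 dpi against Ctrl, which left the list at 2.62 at 3 dpi. Adipoq, the hormone adiponectin made by adipocyte-primed stroma, had levels of 7.77, 7.69 and 7.77 in Ctrl, 8.67, 8.33 and 8.43 at 1 dpi and 12.05, 11.81 and 12.09 at 3 dpi. It newly rose by 3.51 ± 0.11 (SE, n = 3 and 3, adjusted p = 5.4e-06), 11.4-fold, with no overlap. Igfbp5, a binder of insulin-like growth factors, had levels of 8.48, 8.27 and 8.13 in Ctrl, 8.29, 8.03 and 8.17 at 1 dpi and 10.66, 10.29 and 10.33 at 3 dpi, at which 1 dpi overlapped with Ctrl, and newly rose by 2.27 ± 0.13 (SE, n = 3 and 3, adjusted p = 2.6e-05). Chrdl1, a blocker of bone morphogenetic proteins (BMPs), had levels of 5.35, 4.96 and 4.89 in Ctrl, 7.56, 7.34 and 7.47 at 1 dpi and 10.14, 10.19 and 10.36 at 3 dpi and rose further by 2.78 ± 0.13 (SE, n = 3 and 3, adjusted p = 1.2e-05), and the dipeptidase gene Dpep1 rose further by 2.63.

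Cxcl12, the chemokine that holds stem cells in the niche, changed by 0.81 by its brighter probe without reaching 2-fold, while the mean of its probes gave 1.19 and the deposited values 1.49. Lepr, the leptin receptor of perivascular stroma, had probes that disagreed, from -0.94 to 3.38. The brightest gave -0.94, called without 3 dpi array 1 (-1.15), and the deposited values 3.52. The cytokine gene Il7 rose by 1.30 (0.26 and not called over its probes) and the chemokine gene Cxcl14 by 1.04 (0.23 over its probes, 0.93 and 0.95 without 1 dpi array 2 or 3 dpi array 3), both named after their values were seen. Its summed level was 15.81, 15.77 and 15.76 in Ctrl, 16.33, 16.22 and 16.33 at 1 dpi and 17.15, 17.09 and 17.19 at 3 dpi, higher at 3 dpi than on any other array. Of the list, 13 of its 32 genes tested are on another list too.

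Of the osteoblast list, 9 rose and 0 fell of 19 genes tested, with a relative median of 1.04. Bglap, encoding osteocalcin, had levels of 7.15, 7.31 and 7.59 in Ctrl, 9.97, 9.85 and 9.78 at 1 dpi and 11.13, 11.02 and 11.15 at 3 dpi and rose further by 1.24 ± 0.12 (SE, n = 3 and 3, adjusted p = 1.8e-04), though the mean of its probes gave 0.70 and no call. Omd, a leucine-rich proteoglycan of bone, had levels of 5.14, 5.20 and 5.49 in Ctrl, 5.41, 5.42 and 5.73 at 1 dpi and 8.08, 8.48 and 8.39 at 3 dpi and newly rose by 2.80 ± 0.15 (SE, n = 3 and 3, adjusted p = 1.8e-05). The bone sialoprotein gene Ibsp (1.32) and Cthrc1 (2.09) also newly rose. The lineage factor gene Runx2 was lower by a change of -0.77 without a call. Summed, the list came to 12.65, 12.64 and 12.75 in Ctrl, 14.93, 14.76 and 14.84 at 1 dpi and 15.70, 15.64 and 15.75 at 3 dpi, and Sost was not well above background on the irradiated arrays.

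Of the marrow adipocyte list, 4 rose and 0 fell of 20 genes tested, with a relative median of 0.35 that was 0.19 in the deposited table. Beside Adipoq, the fatty-acid carrier gene Fabp4 rose further by 1.47 and carbonic anhydrase Car3 newly rose by 1.86. Pparg, the master factor of fat cells, rose by 1.06, a sign that turned to -0.18 in the deposited table. The list summed to 16.03, 15.90 and 15.89 in Ctrl, 16.57, 16.54 and 16.52 at 1 dpi and 17.18, 17.08 and 17.11 at 3 dpi, with apolipoprotein Apoe brightest. Of the sinusoidal endothelial list, 5 rose and 0 fell of 32 genes tested, with a relative median of 0.54. The junction gene Cldn5 newly rose by 1.24, E-selectin Sele by 1.04 (0.93 and 0.90 without 1 dpi array 2 or 3 dpi array 3, not called) and the gp130 gene Il6st, named after its value was seen, by 1.04 (0.69 over its probes, 1.00 without 3 dpi array 3, neither called). VE-cadherin Cdh5 was 1.71 above Ctrl at 1 dpi and changed by 0.69, and Pecam1 was level (-0.06). Its summed level was 17.52, 17.35 and 17.35 in Ctrl, 18.03, 17.94 and 17.92 at 1 dpi and 17.71, 17.59 and 17.64 at 3 dpi, with Ly6c1 as the brightest gene.

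Of the osteoclast list, 4 rose and 0 fell of 16 genes tested, with a relative median of 0.47 (0.21 in the deposited table). Beside Ctsk these were the tartrate-resistant phosphatase gene Acp5 (1.03, 0.98 over bright probes and 1.00 without 3 dpi array 1, neither called), the proton-pump gene Atp6v0d2 (1.46) and the fusion gene Dcstamp (1.67). Summed, the list came to 16.45, 16.28 and 16.29 in Ctrl, 16.48, 16.51 and 16.50 at 1 dpi and 16.97, 16.88 and 16.83 at 3 dpi. The part of all these cell types in the rises was not tested.

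Some matrix genes rose further. Of matricellular, elastic and basement-membrane genes, 15 rose and 1 fell of 47 genes tested, 13 of the 15 rising further, with a relative median of 0.67 (0.35 with corrected values), after 1.35 at 1 dpi and 2.21 at 3 dpi relative to Ctrl. Ogn, the small proteoglycan osteoglycin, had levels of 5.71, 5.44 and 5.47 in Ctrl, 7.78, 7.53 and 7.78 at 1 dpi and 10.30, 10.49 and 10.56 at 3 dpi and rose further by 2.76 ± 0.12 (SE, n = 3 and 3, adjusted p = 8.8e-06). Lum, lumican, had levels of 5.79, 5.54 and 5.77 in Ctrl, 7.43, 6.79 and 7.29 at 1 dpi and 9.44, 9.59 and 9.61 at 3 dpi and rose further by 2.38 ± 0.16 (SE, n = 3 and 3, adjusted p = 5.0e-05). In both genes the 3 groups were far apart, each day above the last. Tnc, tenascin-C of injured tissue, rose further by 2.27, but by 0.51 and without a call in the deposited table, and Efemp1, a fibulin, by 2.25.

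Fn1, fibronectin, took another course. Its levels were 12.64, 12.46 and 12.38 in Ctrl, 11.91, 11.80 and 11.74 at 1 dpi and 13.96, 13.85 and 13.73 at 3 dpi. The 1 dpi arrays lay below Ctrl and the 3 dpi arrays above it, a new rise of 2.03 ± 0.10 (SE, n = 3 and 3, adjusted p = 1.1e-05). Sparc, a collagen chaperone, was 2.53 above Ctrl at 1 dpi, and its change of 0.63 did not reach 2-fold. The laminin gene Lama2, named after its value was seen, fell by a change of -1.09, which turned to 0.46 over the mean of its probes and was lost without 1 dpi array 2 (-0.93) or 3 dpi array 2 (-0.97).

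Of the collagens, 8 rose and 1 fell of 32 genes tested, with a relative median of 0.42 that was 0.20 with corrected values, 0.21 over the mean of probes and 0.18 without 1 dpi array 2. Relative to Ctrl it was 1.08 at 1 dpi and 0.99 at 3 dpi. Col1a2, a chain of type I collagen, had levels of 11.45, 11.52 and 11.64 in Ctrl, 14.01, 13.73 and 13.87 at 1 dpi and 15.14, 14.93 and 15.06 at 3 dpi and rose further by 1.17 ± 0.10 (SE, n = 3 and 3, adjusted p = 1.1e-04). Col3a1, of type III, rose further by 2.05 ± 0.20 (SE, n = 3 and 3, adjusted p = 1.9e-04). All groups were apart for both. Col6a1 rose further by 1.34 and Col10a1 newly rose by 1.38 (0.99 and not called with corrected values). Col1a1 was 2.20 above Ctrl at 1 dpi and changed by 0.96. Col4a4, named after its value was seen, fell from low levels to below those well above background and was at least 2.93-fold lower, a call that was lost with corrected values (-0.26) and without 1 dpi array 1 (-2.11).

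Proteases and their inhibitors went both ways, with 5 rose and 2 fell of 26 genes tested and a relative median of 0.39. Collagenase-3, Mmp13, rose further by 2.13 ± 0.21 (SE, n = 3 and 3, adjusted p = 2.4e-04). Gelatinase Mmp2 had levels of 5.66, 5.39 and 5.59 in Ctrl, 9.31, 9.30 and 9.45 at 1 dpi and 8.34, 8.18 and 8.19 at 3 dpi and faded by a change of -1.12 ± 0.09 (SE, n = 3 and 3, adjusted p = 1.0e-04), though with the array median the change was -0.95 and not called. These groups were apart in both genes. The inhibitor gene Timp1 faded by a change of -1.13 (-0.95 with the array median and -0.94 without 1 dpi array 1, neither called). Adam9 newly rose by 1.41, Mmp11 recovered by 1.62 (0.93 and not called with corrected values) and Adamts9, named after its value was seen, rose further by 1.20 (0.87 and not called over its probes). Adamts12 is given with the largest rises.

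Of TGF-beta and BMP signalling, 4 rose and 2 fell of 38 genes tested, with a relative median of 0.38 (0.13 over the mean of probes and 0.19 in the deposited table). The BMP antagonist gene Grem1 had levels of 6.51, 6.06 and 6.19 in Ctrl, 7.88, 7.76 and 7.61 at 1 dpi and 9.98, 9.84 and 9.94 at 3 dpi and rose further by 2.17 ± 0.12 (SE, n = 3 and 3, adjusted p = 2.3e-05). Chrdl1, given above, and the ligand gene Bmp6 (1.54, 0.87 and not called with corrected values) also rose further, while the antagonist Nog, noggin, faded by a change of -1.24, a call that was lost without Ctrl array 3 (-1.24), 1 dpi array 1 (-1.13), 2 (-1.32) or 3 (-1.27) or 3 dpi array 2 (-1.02) or 3 (-1.20). Tgfbr1, a receptor chain, had probes that disagreed, from -1.29 to 1.06. The brightest gave 1.06, not called without 1 dpi array 1 or 3 dpi array 2 (1.00 each), and the mean gave -0.46.

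Secreted signals were mixed. Of chemokines, 4 rose and 1 fell of 27 genes tested, with a relative median of 0.14 between the days after 1.00 at 1 dpi against Ctrl. Cxcl10, an interferon-induced attractant of T cells, had levels of 10.51, 10.56 and 10.54 in Ctrl, 13.63, 13.75 and 13.75 at 1 dpi and 12, 12.13 and 12.09 at 3 dpi and faded by a change of -1.64 ± 0.06 (SE, n = 3 and 3, adjusted p = 7.1e-06). Ccl8, an attractant of monocytes, had levels of 7.66, 7.40 and 7.52 in Ctrl, 9.86, 9.47 and 9.58 at 1 dpi and 11.77, 11.75 and 11.82 at 3 dpi and rose further by 2.14 ± 0.11 (SE, n = 3 and 3, adjusted p = 1.6e-05). Cxcl13, an attractant of B cells, had levels of 1.65, 1.30 and 1.03 in Ctrl, 5.53, 5.04 and 6.06 at 1 dpi and 7.37, 7.78 and 8.06 at 3 dpi and rose further by 2.19 ± 0.29 (SE, n = 3 and 3, adjusted p = 8.3e-04), and was not well above background in Ctrl. The eosinophil attractant Ccl24 rose further by 1.05 (0.99 and not called without 1 dpi array 3), and Ccl2 held its level (0.05) at 3.27 above Ctrl.

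Of inflammatory and haematopoietic cytokines, 2 rose and 3 fell of 27 genes tested, with a relative median of -0.19. Lif, leukaemia inhibitory factor, faded by a change of -2.77 ± 0.32 (SE, n = 3 and 3, adjusted p = 4.5e-04). Il18, an inflammasome cytokine, had levels of 10.47, 10.28 and 10.24 in Ctrl, 10.03, 10.08 and 10.14 at 1 dpi and 11.74, 11.77 and 11.75 at 3 dpi, below Ctrl on all 1 dpi arrays, and newly rose by 1.67 ± 0.07 (SE, n = 3 and 3, adjusted p = 9.4e-06). Ifnb1, given above, and Epo, named after its value was seen, also fell. Epo was well above background on no 3 dpi array and was at least 2.6-fold lower (a change of -0.28 and not called with corrected values). Il6 (-0.26) and Il1b (-0.47) did not reach 2-fold and were 1.79 and 0.95 above Ctrl at 3 dpi.

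Of the MK list, 1 rose and 1 fell of 37 genes tested, Slamf1 and Meis1, beside 4.16 and 4.48% of all genes. The relative median was 0.23, after -0.42 at 1 dpi and -0.12 at 3 dpi relative to Ctrl. With no minimum fold, adjusted p was under 0.05 for 16 higher and 6 lower genes of the MK list. 21 of its 37 genes tested are on another list too. Of platelet signalling, 1 rose and 1 fell of 35 genes tested, with a relative median of 0.08. P2ry12, the ADP receptor that clopidogrel blocks, had levels of 8.23, 8.40 and 8.39 in Ctrl, 8.35, 8.67 and 8.54 at 1 dpi and 9.88, 10.27 and 10.29 at 3 dpi and newly rose by 1.63 ± 0.13 (SE, n = 3 and 3, adjusted p = 1.0e-04). Tbxa2r, the thromboxane receptor, had levels of 8.96, 8.69 and 8.73 in Ctrl, 8.90, 8.83 and 8.81 at 1 dpi and 7.87, 7.82 and 7.68 at 3 dpi and newly fell by a change of -1.05 ± 0.09 (SE, n = 3 and 3, adjusted p = 1.2e-04). For both genes 1 dpi overlapped with Ctrl and 3 dpi stood apart. The fall of Tbxa2r was not called with the array median (-0.88), quantile normalization (-1.0) or without 3 dpi array 3 (-1.0). Gp6, the collagen receptor, changed by 0.99, just under 2-fold, and was called without 1 dpi array 1 (1.03), 1 dpi array 2 (1.01) or 3 dpi array 3 (1.01). Gp9, of the von Willebrand receptor, changed by 0.49.

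Of alpha-granule cargo, 3 rose and 3 fell of 27 genes tested, with a relative median of 0.13. The rises were Gas6, F13a1 and Igf1, insulin-like growth factor 1 (1.87, 0.86 and not called over its probes), and the falls included Timp1 and the fibrinogen gene Fga (-1.50, -0.74 and not called with corrected values). Vwf, von Willebrand factor, had levels of 13.02, 12.77 and 12.75 in Ctrl, 12.99, 12.89 and 12.77 at 1 dpi and 12.84, 12.78 and 12.79 at 3 dpi, which overlapped between the days. Of this list, 17 of its 27 genes tested are on another list too. Of the proplatelet cytoskeleton, 0 rose and 0 fell of 32 genes tested, with a relative median of 0.06, and with no minimum fold adjusted p was under 0.05 for 8 higher and 5 lower genes. The platelet tubulin gene Tubb1 changed by 0.35.

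Housekeeping and stress lists had almost no calls. No gene rose or fell among 78 genes for cytosolic ribosomal proteins, 30 of ribosome biogenesis, 72 of the respiratory chain, 31 of the constitutive proteasome, 32 of the unfolded protein and heat shock response, 23 of cholesterol synthesis, 26 of glycolysis and hypoxia or 28 of antioxidant and ferroptosis defence, by limma at 2-fold. With no minimum fold, adjusted p was under 0.05 for 0 higher and 67 lower genes for ribosomal proteins and, in the same order for the others, for 3 and 6, 19 and 3, 11 and 0, 8 and 8, 10 and 1, 6 and 10, and 10 and 6. Their relative medians were, in that order, -0.40, 0.02, 0.13, 0.26, 0.04, 0.26, -0.03 and 0.07. The value for ribosomal proteins turned to 0.07 with quantile normalization and 0.08 with background correction before it. Their first members, Rplp0 (-0.44) and Rps6 (-0.15), were not called. Of autophagy genes, 0 rose and 1 fell of 29 genes tested, with a relative median of 0.22. The fall was Wipi2, of early autophagosomes, with -1.20 by its brightest probe and -0.51 without a call over the mean of its probes.

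**Figure D4:**
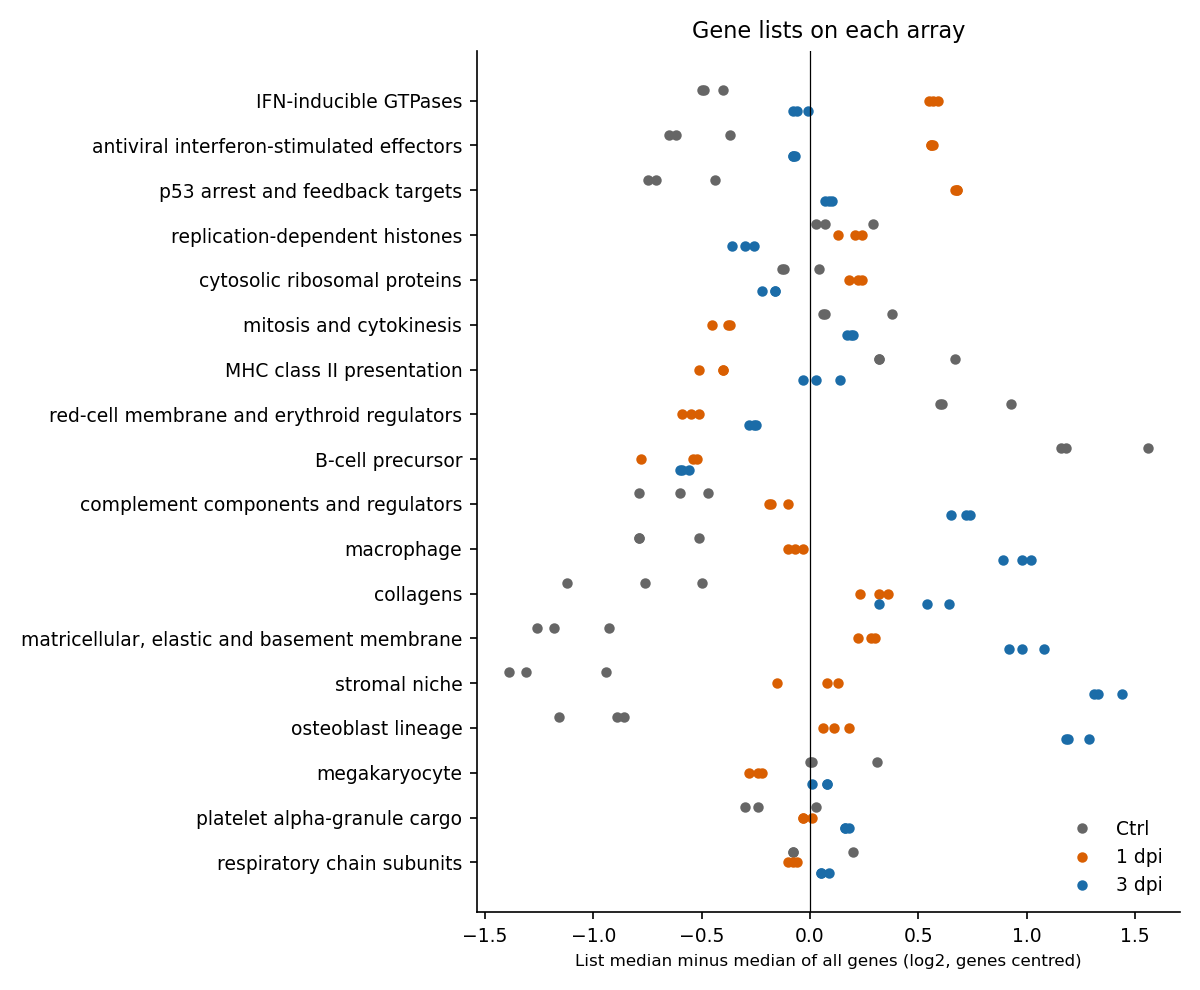
Median of 18 lists on each of the 9 arrays, minus the median of all genes on that array (log2, each gene centred on its mean over 9 arrays), with 1 point for each array. Interferon and p53 lists are highest at 1 dpi and part of the way back at 3 dpi, mitosis returns, and macrophage, complement, stromal and matrix lists are highest at 3 dpi, though 1 array of the collagens overlaps between the days. The ribosomal list is placed lower at 3 dpi than at 1 dpi here, but its sign between the days turned with quantile normalization (0.07).

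Outside the lists, the largest changes among named genes well above background on both days were often seen by 1 probe only. Pcdh15, a protocadherin of hair cells, had the largest fall, with levels of 3.52, 4.51 and 4.67 in Ctrl, 9.49, 8.80 and 8.81 at 1 dpi and 4.78, 5.26 and 5.59 at 3 dpi and a change of -3.82 ± 0.36 (SE, n = 3 and 3, adjusted p = 1.7e-04), while another of its 5 probes gave -0.08 and the change was -0.66 and not called for a probe bright on all arrays. Plcd3 (-3.63), Shank2 (-3.63), Dmrtb1 (-3.62) and Rph3al (-3.49) each had a second probe between -0.79 and -0.07. Rhox4a (-3.77), Lrrn2 (-3.76), Prex2 (-3.56) and the growth factor gene Fgf2 (-3.45) had 1 probe each. All 9 had faded, and for all of them Ctrl array 1 lay below the other Ctrl arrays.

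Further large rises were ranked among genes with a symbol, well above background on both days and with probes that all went the same way. The largest beside those given above were Abca8a (4.34), Defb26 (4.31), Me3 (3.76), Ero1lb (3.49) and Adamts12 (3.43). These 5 shared a shape in which the first array of Ctrl and the first of 3 dpi lay below the other arrays of their group. Abca8a, a lipid transporter gene, had a change of 4.34 ± 0.66 (SE, n = 3 and 3, adjusted p = 0.0015). Adamts12 had levels of 4.34, 8.16 and 8.46 in Ctrl, 4.78, 4.83 and 5.05 at 1 dpi and 7.14, 8.94 and 8.88 at 3 dpi and a change of 3.43 ± 1.05 (SE, n = 3 and 3, adjusted p = 0.032), a call that was lost without 1 dpi array 1 (3.38), 2 (3.4) or 3 (3.51) and without 3 dpi array 2 (3.12) or 3 (3.15). The other probes of Abca8a and Me3 gave 1.18 and 0.35. Among the largest bounds were those of Angptl7, an angiopoietin-like gene at least 20.8-fold higher at 3 dpi, and Lrrc34, at least 4.23-fold lower (-0.52 and not called with corrected values). Angptl7 had the same shape, with levels of 6.28, 8.77 and 9.02 in Ctrl and 7.51, 9.36 and 9.24 at 3 dpi. It recovered to 0.68 relative to Ctrl.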

How the data were processed

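RNA of mMKs from mice without IR and from mice at 1 and 3 dpi was measured on 9 Agilent one-colour arrays, 3 for each group. Per the file headers the spots were read with Agilent Feature Extraction 10.7.1.1, and gProcessedSignal is intensity on a linear scale after background subtraction. The authors also deposited a table in log2 units, with 27275 genes and column medians of 5.79 to 5.87. The labels do not say how it was scaled, but 27050 of its genes lay within 0.1 log2 of a probe's quantile-normalized signal on all arrays.

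Of 62976 spots, 3671 control spots were set aside and 20 probes were left out for flags. The 56605 probes were named by RefSeq (32994) or else by the array file (23611). Intensities were turned to log2, each array was scaled to the same 75th percentile, and 44300 probes were kept that the scanner software had marked as well above background in each array of Ctrl, of 1 dpi or of 3 dpi. The probe with the highest mean stood for a gene, which left 29410 genes. The 3 groups were fitted with limma 3.58.1 in R 4.3.3 (data.table, version 1.17.8) and p was adjusted by Benjamini-Hochberg over all genes. Tables and figures used Python 3.11.15, numpy 2.4.6, pandas 2.3.3 and matplotlib 3.10.9. The steps were tested on simulated data. With 3 arrays in each group and 69.1 to 81.8% of spots well above background, no limit for dim transcripts can be given other than each array's lowest such level.

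The 52 lists of genes, 37 by function and 15 of cell-type markers, and their members were chosen with earlier results of these data known. Genes named are the 10 largest rises and 10 largest falls among genes well above background, with groups that do not overlap, a gene symbol and probes that all go the same way, up to 4 called genes and the first 2 members of each list, and up to 3 of the largest bounds in each direction. Genes named besides these are said to be chosen after their values were seen. Some genes that this rule names are not reported here. The alternatives, fixed before the processed files were opened, were other scalings, including 9 of 10 spike-in probes, the deposited table, other filters, the mean over probes, array weights, blocks, other thresholds, the methods' t-test and leaving out each array.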

Additional observations from a re-analysis of the deposited data

Results flagged for a closer look

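The genes Hba-a1, Hbb-b1, Vpreb2 and Cd209f differed from Ctrl in opposite directions at 1 and 3 dpi, with a call on each day. The change between the days, which this choice of genes makes large and which is no separate test, was -2.79 for Hba-a1, -2.87 for Hbb-b1, -3.47 for Vpreb2 and 3.92 for Cd209f, in 3 of 3 arrays against 3 of 3 each. Both days share the Ctrl arrays, which do not enter the difference between the days.

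The spike-in spots, which take no part in the comparison of genes, were on average brighter at 1 dpi than in Ctrl by 0.64 on the log2 scale. Not every spike-in shared this. The brightest had 18.28, 18.23 and 18.18 at 1 dpi and 17.78, 18.34 and 18.36 in Ctrl, which overlapped. The cause was not tested. Groups of 3 arrays were not tested for single arrays far from the others.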

How the results depend on the processing

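Of 152 named genes that were called, 47 lost the call or turned under a scaling other than that to the spike-ins, 26 under another filter that they passed or over the mean of their probes, and 20 lost it without some array. No called gene turned when an array was left out. Leaving out each array gave 2226 to 2747 genes called, 1074 to 1333 of them higher and 1119 to 1452 lower, with 799 to 1020 faded, 69 to 80 newly fallen, 278 to 433 recovered, 430 to 511 newly risen and 191 to 223 risen further.

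Background correction before quantile normalization gave 1079 called genes, 568 higher and 511 lower, with 430 faded, 16 newly fallen, 206 recovered, 206 newly risen and 55 risen further. Quantile normalization alone gave 593 recovered. The array median gave 828 lower, 608 faded and 655 recovered, and the deposited values gave 611 faded and 660 recovered. With no filter on dim probes 2374 were lower and 1482 faded. With probes bright on all arrays 685 were higher, 222 recovered, 215 newly risen and 132 risen further. With no minimum fold 13016 genes were called, 6167 higher and 6849 lower, and at 4-fold 493, 322 higher and 171 lower. The methods' t-test without a minimum fold gave 16718 genes unadjusted, 7411 higher and 9307 lower, and 14160 adjusted, 6411 higher and 7749 lower. The cause was not tested where fewer genes or another threshold does not give it.

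Spike-in scaling gave 24800 called genes, 24702 higher and 98 lower, and turned the sign of these changes between the days: Pf4 1.58, Vwf 1.55, Tbxa2r 0.58, Meis1 0.62, Isg15 0.09, Ifit1 0.09, Ifit3 0.02, Irf1 0.07, B2m 1.32, Nlrc5 0.51, Cgas 1.58, Cdkn1a 0.27, Mdm2 0.56, Ak1 0.23, Psrc1 0.15, Btg2 0.26, Bax 0.15, Bbc3 0.11, Bcl2l1 1.53, Ung 0.40, Rad51c 0.37, Cd34 0.63, Kit 1.42, Mcm2 1.55, H1f5 1.03, H2bc3 1.15, H3c1 0.63, C3 1.59, Ctsd 1.55, Ms4a4c 0.50, Ly6c2 1.02, Pecam1 1.57, Mmp2 0.51, Timp1 0.51, Il6 1.38, Il1b 1.17, Rplp0 1.20, Rps6 1.48, Elane 1.42, Cd3e 1.21, Nkg7 1.33, Gbp9 0.21, Hrk 0.54, Wipi2 0.43, Fga 0.14, Nog 0.40, Mx1 0.46, Mx2 0.51, Epo 0.26, Lama2 0.55, Dmtn 0.33, Hemgn 0.40, Flt3 1.17, Siglech 0.70, Runx2 0.87, Cd22 1.32, Itga2b 0.94, Irgm1 0.80, Irf7 0.77, Tap1 0.68, Lepr 0.69, Mpo 0.74, Prg2 0.76 and Cd247 0.02. Spike-in scaling also brought the change of Cxcl10 to 0.00. It adds the difference between sample and spike-in signal to every gene, and the cause of that difference was not tested.

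Where a relative median was at least 0.2 from 0, its sign turned to -0.05 for death receptors and caspases in the deposited table, to 0.07 and 0.08 for ribosomal proteins with quantile normalization without and with background correction, and to -0.04 for red-cell genes bright on all arrays. Of 20 lists nearer 0, 12 took the other sign in some setting, the deposited table giving -0.20 for IRF and STAT factors, -0.10 for platelet signalling, -0.07 for the proplatelet and stress lists, -0.13 for ribosome biogenesis and 0.03 for mast cells, and others giving 0.09 for nucleic acid sensors, 0.16 for glycolysis, -0.16 for haem, 0.07 for BCL2 genes, -0.02 for monocytes and -0.02 for B-cell precursors. The relative median moved by over 1.5 times with corrected values for T and NK cells (0.31), autophagy (0.14), proteases (0.24), the osteoblast (0.68) and sinusoidal (0.34) lists, histones (-0.38) and red-cell genes (0.16), in the deposited table for GTPases (-0.82), antiviral effectors (-0.78), dendritic cells (0.83), proteases (0.64), red-cell genes (0.79) and the proteasome (0.05), and with quantile normalization for cholesterol synthesis (0.17). It also did in lists nearer 0, such as nucleic acid sensors (-0.31), progenitors (-0.31), cytokines (-0.31) and BCL2 genes (-0.18) in the deposited table. Of changes called in either setting, the deposited table turned Lepr (3.52), Tgfbr1 (-0.55), Pparg (-0.18), Dmtn (0.83), Hemgn (0.30), Siglech (1.46) and Cd247 (2.03), and the mean of probes turned Lepr (1.02), Tgfbr1 (-0.46), Lama2 (0.46) and Cd247 (0.17). The probes of these genes disagreed, and the cause was not tested. Changes without a call also turned, such as Prg2 to 0.02 with quantile normalization.

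The labels do not say whether equal array numbers mark a shared experiment, and the main fit used no block. After group means were removed, arrays of the same number at 1 and 3 dpi correlated by 0.128, 0.062 and 0.0167. Those of different numbers correlated by -0.147 to 0.0898. A block for the number gave 1200 genes higher and 1255 lower. Signal over background limits the dimmest genes, since 377 of the genes that rose were well above background on no 1 dpi array.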
